A study of Homo sapiens with 2 samples.

Results

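The genes described here are those of the urokinase plasminogen activator PLAU and its receptor PLAUR, the matrix metalloproteinases MMP7 and MMP14, the membrane proteases ADAM9, ADAM10 and ADAM17, and the inhibitors TIMP1, TIMP2 and TIMP3. They were chosen by name, and every probe set annotated to exactly 1 of them was used, which gave 27 probe sets for the 10 genes, of 19775 genes with such a probe set on the array. RNA was measured on 2 oligonucleotide arrays. The siSHISA2 array held RNA of PC-3 cells transfected with an shRNA (short hairpin RNA) vector against SHISA2, and the siCONTROL array RNA of PC-3 cells that had received the control shRNA vector. PC-3 is an established human prostate cancer line, derived from metastatic tissue in bone, and no other treatment is named in the labels, nor how many cultures each RNA came from. Each group is 1 array from 1 vector, with no replicate, so no test was possible and every difference below compares these 2 arrays only.

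Cells cut the proteins around them in several linked ways. Urokinase, held at the cell surface by its receptor, turns plasminogen into plasmin, which degrades fibrin and matrix and can activate metalloproteinase precursors. Matrix metalloproteinases cleave matrix proteins, ADAM proteases release the outer parts of membrane proteins such as growth factors and adhesion molecules, and TIMPs are the tissue inhibitors of metalloproteinases. In prostate cancer this system is best known for its part in invasion and bone metastasis.

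The clearest differences were a higher signal of the urokinase receptor and a lower signal of the inhibitor TIMP2 in siSHISA2 cells. PLAUR was higher on all 3 of its probe sets, by 1.22-fold to 1.58-fold. TIMP2 was lower on all 3 of its probe sets, by 1.26-fold to 1.52-fold. ADAM9 and ADAM10 were also lower on each of their 3 probe sets, by 1.19-fold to 1.29-fold for ADAM9 and by 1.22-fold to 1.46-fold for ADAM10. MMP7, which was dim, was at least 1.99-fold lower, while PLAU, MMP14, ADAM17 and TIMP1 differed by at most 1.19-fold on any measured probe set. In such bulk RNA, fewer cells with a transcript and less of it per cell cannot be told apart.

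SHISA2 itself, the target of the vector, read 1506.2 in siSHISA2 and 3536.1 in siCONTROL cells on its single probe set, which is 42.6% of the control signal. Among the 12931 measured genes the 2-fold threshold was passed by 119 on the higher and 73 on the lower side, and this split turned to 94 and 100 after a loess trend on signal was removed. Of the PC-3 epithelial markers, KRT8, KRT18, CD44 and EPCAM were measured, and KRT19 and CDH1 were under the floor in both arrays. The highest signals of all 6 summed to 35676.6 in siSHISA2 and 38404.7 in siCONTROL cells. The prostate luminal genes KLK2 and KLK3, 2 of 4 listed, summed to 322.3 in siSHISA2 and 262.9 in siCONTROL cells. KLK2 read 71.3 in siSHISA2 and 20.6, under the floor, in siCONTROL cells. KLK3 read 251.0 in siSHISA2 and 242.3 in siCONTROL cells. Of markers of other cells, 2 of 6 fibroblast, 2 of 6 leukocyte and 2 of 5 endothelial genes were measured, with the endothelial CDH5 at 261.5 in siSHISA2 and 155.9 in siCONTROL cells (1.68-fold higher) and PECAM1 at 121.7 in siSHISA2 and 104.6 in siCONTROL cells. The measured fibroblast genes were COL1A1 and DCN and the measured leukocyte genes CSF1R and ITGAM. Of these DCN, CSF1R and ITGAM were above the floor in 1 array only. Among the markers under the floor in both were PTPRC, CD14, COL1A2, COL3A1, VWF and KDR. The summed marker signals take in all listed markers on the array, those under the floor included. For fibroblasts they were 716.9 in siSHISA2 and 926.6 in siCONTROL cells, most of it COL1A1. For leukocytes they were 167.7 in siSHISA2 and 140.0 in siCONTROL cells, and for endothelium 419.1 in siSHISA2 and 296.6 in siCONTROL cells. Their part in the results was not tested. The ratio of 3' to 5' signal, a sign of RNA integrity, was 4.79 in siSHISA2 cells for ACTB and higher in siCONTROL cells. For GAPDH it was 1.36 in siSHISA2 and 1.55 in siCONTROL cells. The ACTB ratio was thus well above the GAPDH ratio on both arrays, and what this 3' excess did to the signals was not tested.

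Values are signals, the summary that the MAS5 software gives for the probes of a set on a linear scale, and they were used as deposited. A floor was set at 47.9, the median signal of the arrays, and smaller signals were given that value. Probe sets count as measured where at least 1 of the 2 arrays exceeded the floor, and a ratio with 1 signal under it is a bound. All log2 ratios are siSHISA2 over siCONTROL. As the only error the files hold, the disagreement between the log2 ratios of probe sets of the same gene was used. Its SD was 0.13 for signals above 1000, 0.19 between the 75th percentile of all signals (387.3) and 1000, 0.30 between 100 and 387.3, and 0.43 from the floor to 100, and each ratio was set against the SD at the mean log2 signal of its 2 arrays. This spread covers disagreement between probe sets on the same 2 arrays and leaves out variation between cultures. Signals of different probe sets depend on their probes, so the 10 genes are not ordered by level.

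**Figure D1:**
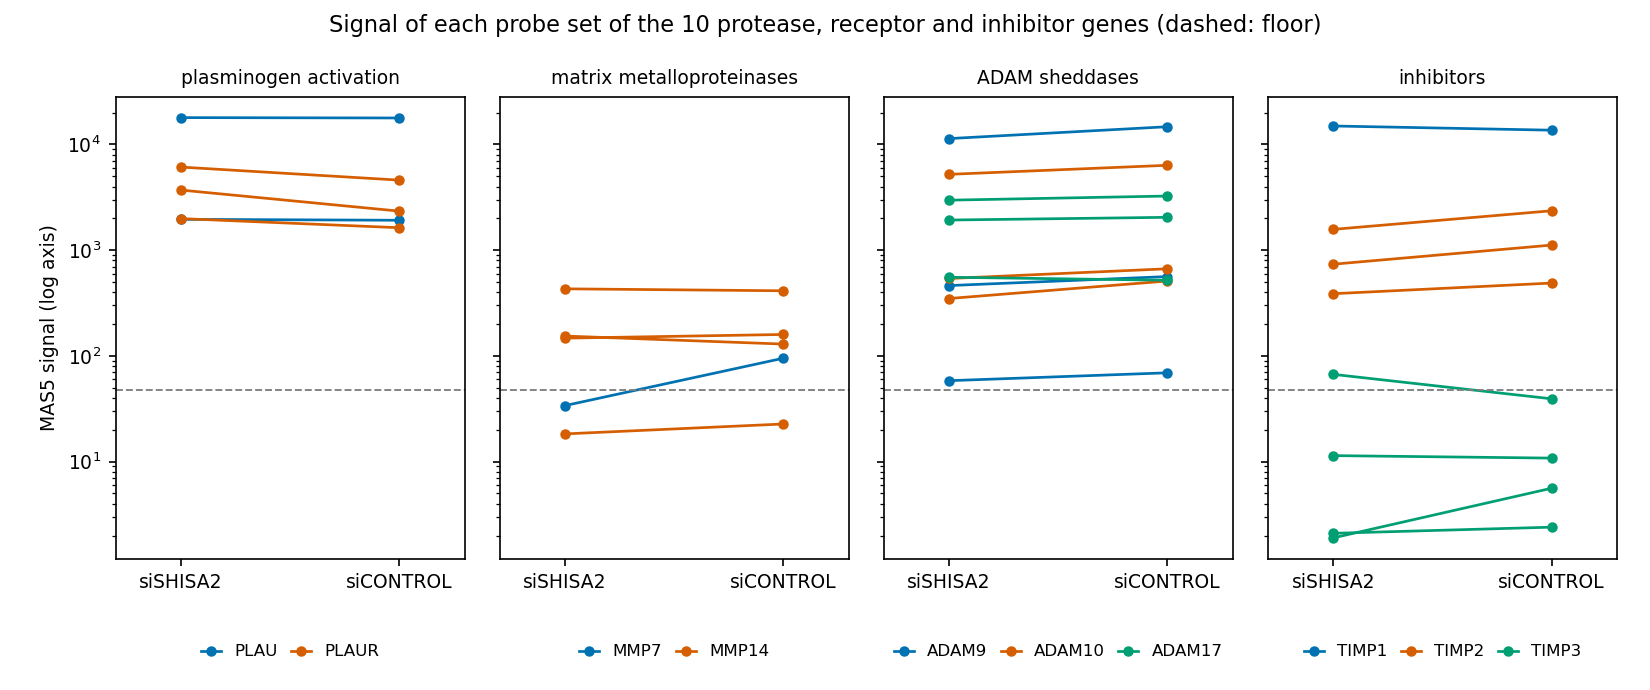
MAS5 signal of all 27 probe sets on a log axis, with siSHISA2 on the left and siCONTROL on the right of each panel, 1 line per probe set and the floor of 47.9 as a dashed line. The lines of PLAUR slope down to the right and those of TIMP2, ADAM9 and ADAM10 slope up, while 3 probe sets of TIMP3 and 1 of MMP14 lie under the floor in both arrays.

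Of the 27 probe sets 23 were measured, 17 of them with both signals above 387.3. Of the 4 that were not, 3 belong to TIMP3 and 1 to MMP14. All 10 genes had at least 1 measured probe set, and for MMP7 and TIMP3 the ratio is a bound.

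The stretches upstream of PLAUR, MMP7 and ADAM10 are shown because these genes differed in opposite directions, PLAUR being higher and MMP7 and ADAM10 lower. Each is the 250 bases that end just before the annotated RefSeq transcript start (build GRCh38.p14), outside the first exon, on the minus strand and read 5′ to 3′. Windows were matched for 8 of the 10 genes, with 2 starts for PLAU, and none was matched for TIMP2 or ADAM9. Capitals mark matches to 3 short motifs or to their reverse complements. The AP-1 motif searched was TGANTCA. The core of the sites that TCF factors recognise was CTTTGA. For ETS factors the motif was AGGAAG. No marked matches overlap.
PLAUR, chr19:43670170-43670419: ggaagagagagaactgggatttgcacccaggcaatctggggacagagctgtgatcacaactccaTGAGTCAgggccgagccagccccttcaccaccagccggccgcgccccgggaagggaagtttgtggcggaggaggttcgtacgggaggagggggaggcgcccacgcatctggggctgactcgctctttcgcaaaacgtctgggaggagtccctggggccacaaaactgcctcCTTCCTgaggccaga
MMP7, chr11:102530748-102530997: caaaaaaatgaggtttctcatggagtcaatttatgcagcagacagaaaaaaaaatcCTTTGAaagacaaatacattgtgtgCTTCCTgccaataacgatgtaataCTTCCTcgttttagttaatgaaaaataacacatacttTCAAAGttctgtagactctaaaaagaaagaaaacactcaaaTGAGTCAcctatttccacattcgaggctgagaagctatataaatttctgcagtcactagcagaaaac
ADAM10, chr15:58749708-58749957: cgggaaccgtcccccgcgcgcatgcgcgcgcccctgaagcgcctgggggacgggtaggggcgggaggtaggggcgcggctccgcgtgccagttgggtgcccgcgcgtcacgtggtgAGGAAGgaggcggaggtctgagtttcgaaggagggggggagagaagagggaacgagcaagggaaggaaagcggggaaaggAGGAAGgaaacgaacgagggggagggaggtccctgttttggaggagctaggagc

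The AP-1 motif occurred 1 time in the PLAUR window, 186 bases before the start, and 1 time in the MMP7 window, 67 bases before it, and in none of the other 7 windows. It was found in 6.6% of the 35116 promoter windows of the same length. The TCF core occurred 2 times in the MMP7 window, 194 and 108 bases before the start, and in no other window of these genes, against 11.2% of all windows. The ETS motif was present in the windows of PLAUR, MMP7, ADAM10, ADAM17 and TIMP1 and at 1 of the 2 PLAU starts, against 28.7% of all windows. These matches describe letters only and say nothing about factor binding. Of the genes with the AP-1 motif, PLAUR was higher and MMP7, a bound on 1 dim probe set, was lower. Whether any motif bears on the ratios was not tested.

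PLAU encodes the protease urokinase. Its brighter probe set, 205479_s_at, read 17941.7 in siSHISA2 and 17798.7 in siCONTROL cells, a log2 ratio of 0.01. The other, 211668_s_at, read 1958.5 in siSHISA2 and 1918.5 in siCONTROL cells, a log2 ratio of 0.03. Both ratios were well within the spread of 0.13, and that of the brighter probe set turned to -0.01, -0.02 and -0.04 under the 3 other scalings.

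PLAUR encodes the receptor that anchors urokinase to the membrane by a lipid tail. Probe set 210845_s_at read 6109.6 in siSHISA2 and 4598.3 in siCONTROL cells (log2 ratio 0.41). Probe set 211924_s_at read 3703.5 in siSHISA2 and 2341.0 in siCONTROL cells (log2 ratio 0.66). The only one of the 3 that is not of a kind that can share probes with other transcripts, 214866_at, read 1989.5 in siSHISA2 and 1630.6 in siCONTROL cells (log2 ratio 0.29). All 3 were bright and higher in siSHISA2 cells, by 2.22 to 5.13 times the spread at their signal. Of the 7650 genes with both signals above 387.3, 197 (2.58%) had a log2 ratio at least as high as that of PLAUR.

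Among 14 further genes of the plasminogen system, 12 were represented and 7 measured, 3 above and 4 below 0, with a median log2 ratio of -0.06. SERPINE2, a serpin that inhibits urokinase, read 3600.6 in siSHISA2 and 5594.9 in siCONTROL cells on its single measured probe set (log2 ratio -0.64). PLAT, the tissue-type plasminogen activator, was dim at 71.9 in siSHISA2 and 139.2 in siCONTROL cells (log2 ratio -0.95). These were the 2 of the 7 that were at least 1.5-fold lower, and none was 1.5-fold higher, beside 3.77% and 5.01% of all measured genes. ENO1, an enolase that also binds plasminogen, read 15564.4 in siSHISA2 and 17954.4 in siCONTROL cells (log2 ratio -0.21, with 3 probe sets from -0.21 to -0.10), and the plasminogen receptor PLGRKT read 755.1 in siSHISA2 and 785.2 in siCONTROL cells (-0.06). ANXA2 and S100A10, which together bind plasminogen at the cell surface, had log2 ratios of 0.01 and 0.03 on their brightest probe sets, and the other measured probe set of S100A10 was at 0.54. PLG, plasminogen itself, was under the floor in both arrays.

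MMP7 encodes matrilysin, a small secreted metalloproteinase made mainly by epithelial cells. Its only probe set, 204259_at, read 33.9 in siSHISA2 and 95.1 in siCONTROL cells. The siSHISA2 signal was under the floor, so the gene was at least 1.99-fold lower (log2 ratio -0.99), just short of the 2-fold threshold. The spread between probe sets is 0.43 at such signals, and there was no second probe set to compare.

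MMP14 encodes a membrane-bound collagenase that also activates the precursor of MMP2. Probe set 160020_at read 431.0 in siSHISA2 and 413.0 in siCONTROL cells (log2 ratio 0.06). The dimmer 202828_s_at read 147.2 in siSHISA2 and 159.5 in siCONTROL cells (-0.12), and 202827_s_at read 154.1 in siSHISA2 and 129.4 in siCONTROL cells (0.25). Probe set 217279_x_at was under the floor, at 18.3 in siSHISA2 and 22.7 in siCONTROL cells. The 3 measured probe sets differed in sign, and each ratio was smaller than the spread at its signal.

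Of 20 other matrix metalloproteinases all were represented and 10 measured, none of them with both signals above 387.3. Of the 10, 4 were above and 6 below 0, with a median log2 ratio of -0.17 that turned to 0.37 with the floor at 11.3. At least 1.5-fold higher were 2 of the 10 and 1.5-fold lower none, beside 5.01% and 3.77% of all measured genes. MMP9, a gelatinase, read 141.8 in siSHISA2 and 93.2 in siCONTROL cells (log2 ratio 0.61), and MMP28 was at least 1.80-fold higher, at 86.3 in siSHISA2 cells against 30.7, under the floor, in siCONTROL cells. MMP2, which MMP14 activates, read 65.9 in siSHISA2 and 60.7 in siCONTROL cells (0.12), close to the floor. The lowest ratios, named after values were seen, were those of MMP15, at 67.8 in siSHISA2 and 99.2 in siCONTROL cells (-0.55), and MMP19, at 38.9, under the floor, in siSHISA2 and 66.7 in siCONTROL cells (-0.48, a bound).

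ADAM9 encodes a membrane metalloproteinase with an integrin-binding domain. Probe set 202381_at read 11365.5 in siSHISA2 and 14715.9 in siCONTROL cells (log2 ratio -0.37, 2.89 times the spread). Probe set 1555326_a_at read 462.8 in siSHISA2 and 563.0 in siCONTROL cells (-0.28, 1.52 times the spread). The dim 1570042_a_at read 58.3 in siSHISA2 and 69.2 in siCONTROL cells (-0.25, 0.58 times the spread). All 3 were lower in siSHISA2 cells, and only the dimmest lay within the spread.

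ADAM10 encodes the main protease that starts Notch cleavage and releases several cadherins. Probe set 202603_at read 5215.8 in siSHISA2 and 6352.4 in siCONTROL cells (log2 ratio -0.28). Probe set 202604_x_at read 539.7 in siSHISA2 and 667.0 in siCONTROL cells (-0.31), and 214895_s_at read 349.1 in siSHISA2 and 511.1 in siCONTROL cells (-0.55). The 3 ratios were 1.64 to 2.96 times the spread, all on the lower side. Ratios at least as low were found in 365 of the 7650 bright genes for ADAM9 (4.77%) and in 688 for ADAM10 (8.99%).

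ADAM17 encodes the protease that releases tumour necrosis factor and many ligands of the EGF receptor. Its probe sets 213532_at and 205745_x_at read 2971.4 and 1928.1 in siSHISA2 cells, against 3252.0 and 2046.1 in siCONTROL cells, with log2 ratios of -0.13 and -0.09. The other, 205746_s_at, read 554.6 in siSHISA2 and 519.5 in siCONTROL cells (0.09). The probe sets differed in sign and none was more than 1.01 times the spread.

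Among 16 genes for maturation and trafficking of these proteases, 15 were measured, with 10 above and 5 below 0 and a median log2 ratio of 0.03. On the brightest probe set of each gene none was 1.5-fold apart in either direction, beside 5.01% of all measured genes higher and 3.77% lower. With 15 genes, a count of 0 is near these shares. Other probe sets went further for FRMD8 (from -1.51 to 1.04) and PCSK7 (0.82). RHBDF2, an inactive rhomboid that carries ADAM17 to the cell surface, came nearest, at 282.7 in siSHISA2 and 188.7 in siCONTROL cells (log2 ratio 0.58). TSPAN15, a tetraspanin partner of ADAM10, read 177.8 in siSHISA2 and 138.9 in siCONTROL cells (0.36), and TSPAN17, another, read 1000.4 in siSHISA2 and 1065.9 in siCONTROL cells (-0.09). The sorting protein PACS2 read 734.4 in siSHISA2 and 642.3 in siCONTROL cells (0.19, with 4 probe sets from -0.18 to 0.37). The RHBDF2 paralogue RHBDF1 read 426.0 in siSHISA2 and 388.7 in siCONTROL cells (0.13), and FURIN, which removes the propeptides of several of these proteases, read 265.5 in siSHISA2 and 260.3 in siCONTROL cells (0.03).

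Of 25 known shedding substrates of ADAM10 and ADAM17, 22 were measured, 6 above and 16 below 0, beside 47.8% of all measured genes below 0. The median log2 ratio was -0.14, and -0.01 when the _x_at and _s_at probe sets were left out. The growth factor HBEGF was higher on both probe sets (log2 ratios 0.45 and 0.47), at 866.8 in siSHISA2 and 633.3 in siCONTROL cells on the brighter one. The syndecan SDC4 read 6448.9 in siSHISA2 and 4146.7 in siCONTROL cells (0.64, on 1 probe set). The adhesion molecule ALCAM was lower on both probe sets (-0.48 and -0.32), and the receptor tyrosine kinase MET read 8550.8 in siSHISA2 and 10912.9 in siCONTROL cells (-0.35, with 4 probe sets from -0.35 to 0.02). NOTCH1 was dim, at 226.7 in siSHISA2 and 101.7 in siCONTROL cells (1.16). SDC4 and NOTCH1 were the 2 of the 22 that were at least 1.5-fold higher, and none was 1.5-fold lower, beside 5.01% and 3.77% of all measured genes.

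TIMP1 encodes a secreted inhibitor of most matrix metalloproteinases that acts weakly on MMP14. Its single probe set, 201666_at, read 14950.9 in siSHISA2 and 13644.4 in siCONTROL cells (log2 ratio 0.13, 1.02 times the spread). Across the 3 other scalings its ratio was 0.08 to 0.11, within the spread.

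TIMP2 encodes the inhibitor that blocks MMP14 and, at the cell surface, also links MMP14 with the MMP2 precursor for its activation. Probe set 231579_s_at read 1573.6 in siSHISA2 and 2358.7 in siCONTROL cells (log2 ratio -0.58). Probe set 224560_at read 736.7 in siSHISA2 and 1117.0 in siCONTROL cells (-0.60), and 203167_at read 387.5 in siSHISA2 and 488.6 in siCONTROL cells (-0.33). All 3 were lower in siSHISA2 cells, by 1.80 to 4.53 times the spread. Of the bright genes, 106 of 7650 (1.39%) had a ratio at least as low as that of TIMP2.

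TIMP3 encodes the inhibitor that binds to the matrix and acts on ADAM17 as well as on metalloproteinases. Only 201149_s_at was measured, at 66.9 in siSHISA2 cells and 39.3, under the floor, in siCONTROL cells, so it was at least 1.40-fold higher (log2 ratio 0.48, spread 0.43). The other 3 probe sets lay under the floor in both arrays, at 1.9, 11.4 and 2.1 in siSHISA2 and 5.6, 10.8 and 2.4 in siCONTROL cells. With 3 of 4 probe sets unmeasured and the fourth near the floor, the arrays do not settle the level of TIMP3. Of 5 other inhibitors 2 were measured: RECK, a membrane-anchored inhibitor, read 249.7 in siSHISA2 and 245.7 in siCONTROL cells (0.02, with 4 probe sets from -0.85 to 0.10), and A2M read 46.2, under the floor, in siSHISA2 and 52.5 in siCONTROL cells.

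**Figure D2:**
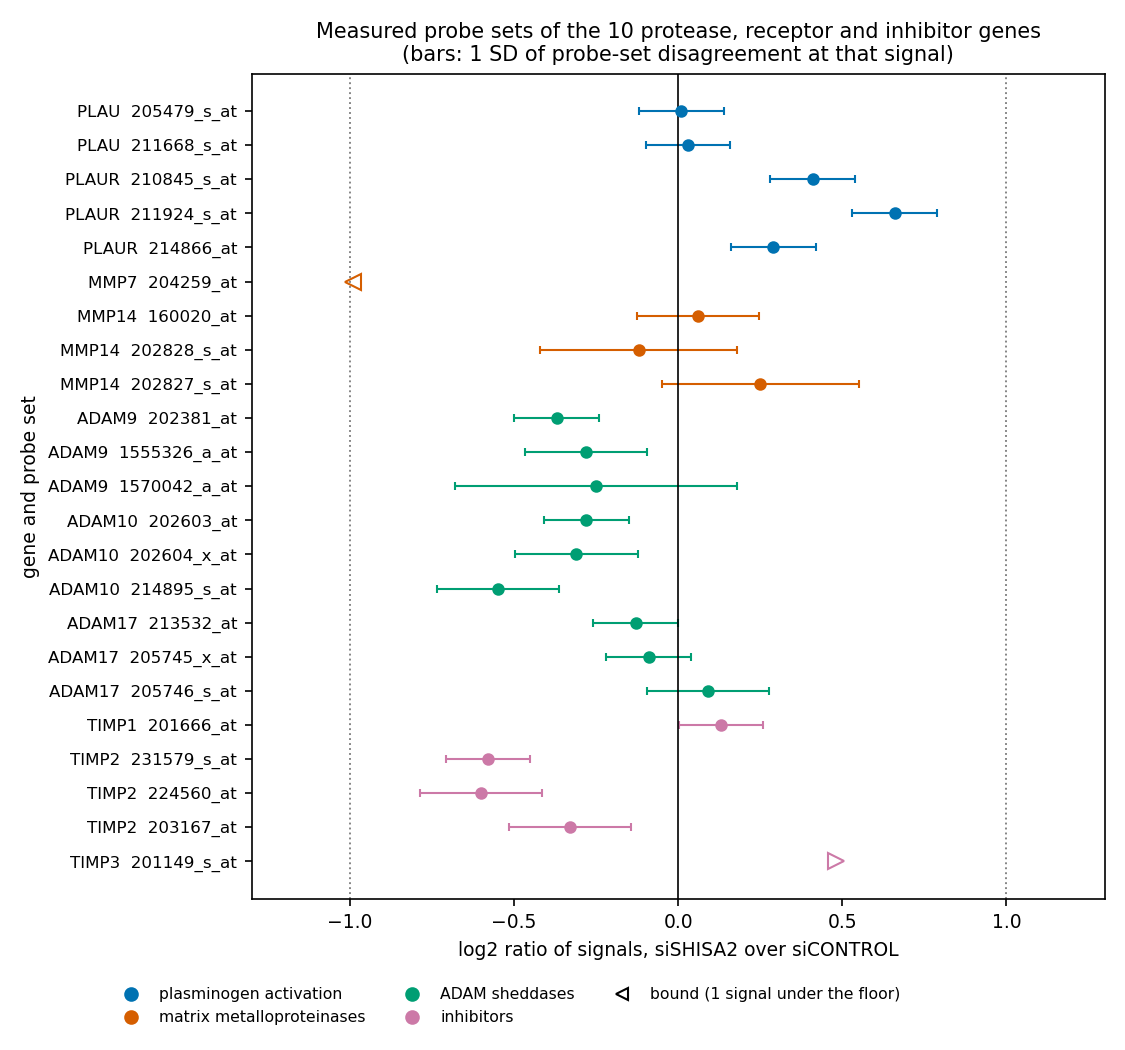
Log2 ratio of siSHISA2 over siCONTROL for the 23 measured probe sets, coloured by role, with bars of 1 SD of the disagreement between probe sets at that signal open triangles for the 2 bounds and dotted lines at 2-fold. The 3 points of PLAUR lie to the right of 0 with their bars and those of TIMP2 and ADAM10 to the left, while ADAM17 and MMP14 lie on both sides.

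Dim genes filled most of the counts past a fold threshold, so the 10 genes were set against all genes and against bright ones. As deposited, 0 of the 10 genes passed 2-fold, where 0.92% of the 12931 measured genes passed it on the higher side and 0.565% on the lower. The ratio of MMP7 is a bound, so a difference beyond 2-fold was not excluded for it, and it passed (count of 1) after each of the 3 other scalings, with the floor at 11.3 and with no floor and a pseudocount of 1. At 1.5-fold, 0 of the 10 were higher, against 5.01% of all genes, and 1, MMP7, was lower, against 3.77%. Of the 8 of these genes with both signals above 387.3, 0 passed 2-fold, where 0.0654% of the 7650 such genes were past it on the higher and 0.0523% on the lower side. None of the 8 passed 1.5-fold either, where 0.732% of the bright genes were past it on the higher and 1.37% on the lower side. TIMP2 fell just short of this threshold on the lower side (1573.6 over 2358.7 is a log2 ratio of -0.58). By probe set, 0 of 23 were 2-fold apart, against 1.75% of 24507 measured probe sets with 1 gene. At 1.5-fold 1 of the 23 was higher (a PLAUR probe set), against 6.05%, and 2 were lower (MMP7 and a TIMP2 probe set), against 4.42%. With so few probe sets these counts do not stand apart from the background.

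Agreement between the probe sets of a gene was counted as well, a measure added after values were seen. Of the 6 genes with at least 3 measured probe sets, 1 (PLAUR) had all of them above 0, against 15.7% of 3018 such genes, and 3 (TIMP2, ADAM9 and ADAM10) had all below 0, against 14.8%. Probe sets of 1 gene share the same labelled RNA and are not replicates, and the genes were chosen with these data known, so this is a description. Among the 3018 genes, 34 (1.13%) had all probe sets at least as high as the lowest of PLAUR. The corresponding number on the lower side was 27 (0.89%) for TIMP2, 40 (1.33%) for ADAM10 and 52 (1.72%) for ADAM9. The median over the 10 genes was -0.06 with 5 above and 5 below 0, beside 0.01 over all measured genes, of which 47.8% were below 0.

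**Figure D3:**
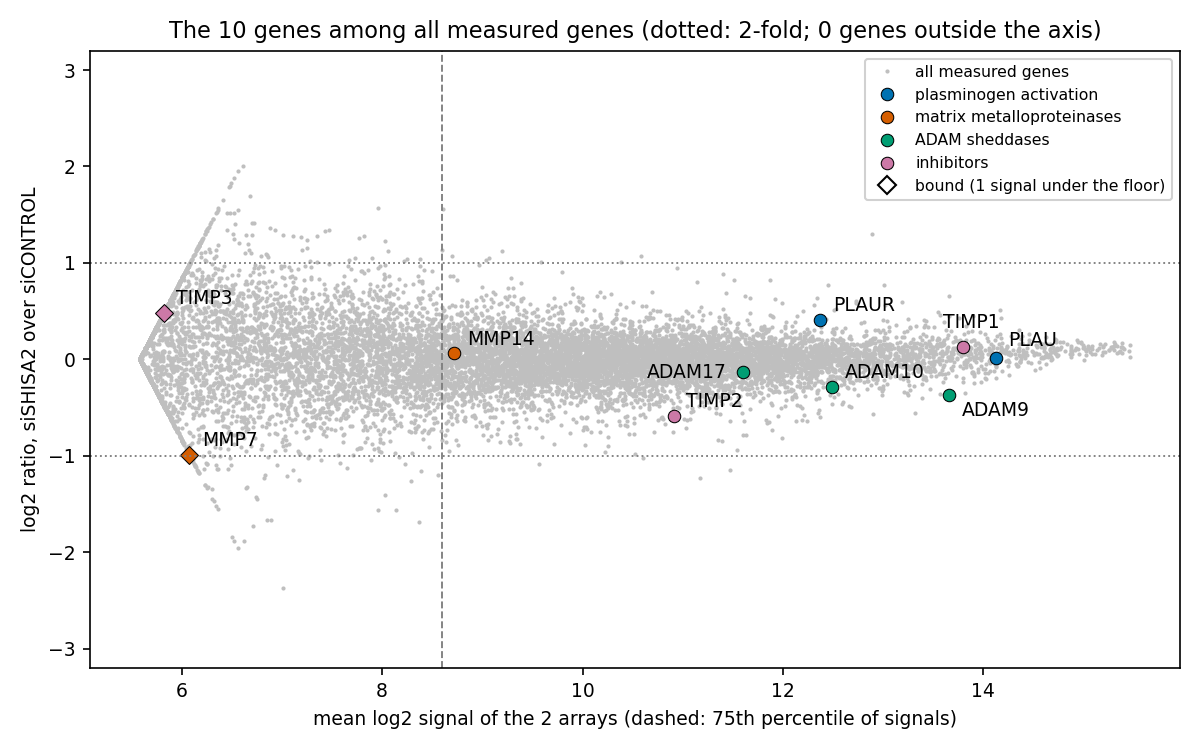
Log2 ratio against mean log2 signal of the 2 arrays for all 12931 measured genes (grey) and the 10 genes (coloured by role), with dotted lines at 2-fold and a dashed line at the 75th percentile of signals. PLAUR (0.41) lies above and TIMP2 (-0.58) and ADAM9 (-0.37) below most grey points of like signal, and MMP7 and TIMP3 lie on the lines that the floor draws.

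The remaining lists covered related proteases and the proteins they cut. Of 15 other ADAM genes 8 were measured, 5 above and 3 below 0 (median log2 ratio 0.17), all with at least 1 signal of at most 387.3. ADAM19 was the only one at least 2-fold apart, with a log2 ratio of -1.20 on a dim probe set and -0.37 on its other one. The background shares past 2-fold were 0.92% on the higher and 0.565% on the lower side. Past 1.5-fold lay 1 of the 8 on the higher side and 1 on the lower, beside background shares of 5.01% and 3.77%. ADAM15 read 390.3 in siSHISA2 and 280.6 in siCONTROL cells (0.48), with -0.42 on its other probe set, and was named after its values were seen. ADAM11 was at least 1.57-fold higher, at 75.2 in siSHISA2 cells against 39.2, under the floor, in siCONTROL cells. The median turned to -0.01 when probe sets were averaged. Of 19 ADAMTS genes, secreted relatives that cleave proteoglycans and procollagens, 10 were measured, 4 above and 6 below 0, with a median of -0.18 that turned to 0.03 with the floor at 387.3. At 1.5-fold, 1 was higher and 3 were lower, beside 5.01% and 3.77% of all measured genes. ADAMTS3 (-0.87) and ADAMTS15 (-0.74) had the largest ratios in size, both dim, and the bright ADAMTS1 read 842.1 in siSHISA2 and 825.2 in siCONTROL cells (0.03).

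Membrane serine proteases and their inhibitors were mostly under the floor, with 5 of 14 measured, 3 above and 2 below 0. At 1.5-fold, 2 were higher and 1 lower, beside 5.01% and 3.77% of all measured genes. SPINT2, an inhibitor of matriptase and hepsin, read 8126.2 in siSHISA2 and 7961.8 in siCONTROL cells (log2 ratio 0.03). The serine protease PRSS22 was at least 2.94-fold higher, at 140.6 in siSHISA2 cells against 40.0, under the floor, in siCONTROL cells. SPINT1, a matriptase inhibitor, read 95.6 in siSHISA2 cells against 29.5, under the floor, in siCONTROL cells, a bound just short of 2-fold higher. Hepsin, HPN, named after values were seen, was lower at 57.4 in siSHISA2 and 93.5 in siCONTROL cells (-0.70).

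The matrix proteins that plasmin and MMP14 cleave had the lowest median of the 9 related lists. Of 12 listed, 9 were represented and measured, 2 above and 7 below 0, with a median log2 ratio of -0.79. At 1.5-fold, 5 of 9 were lower and 1 higher, beside 3.77% and 5.01% of all measured genes. The list was written with earlier results of these data known, so this count is a description only. Among the 5 was FN1, at 224.6 in siSHISA2 and 441.8 in siCONTROL cells (-0.98, with 5 probe sets from -1.28 to 0.18). The basement membrane collagens COL4A2 (2148.7 in siSHISA2 and 4111.3 in siCONTROL cells, with log2 ratios of -0.94 and -0.91 on both probe sets) and COL4A1 (-0.79, and -0.04 on its other probe set) were bright. LAMB3, a chain of laminin, was on the higher side at 2987.8 in siSHISA2 and 1713.0 in siCONTROL cells (0.80). FBLN1 (-1.09, with 4 probe sets from -1.26 to 0.29) and SPP1 (183.7 in siSHISA2 and 593.3 in siCONTROL cells, -1.69) were lower. The fibroblast marker COL1A1, also on this list, read 577.0 in siSHISA2 and 787.2 in siCONTROL cells (-0.45, with 3 probe sets from -0.45 to 0.92). The median came to -0.25 with the floor at 387.3 and to -0.42 when the probe sets of a gene were averaged.

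**Figure D4:**
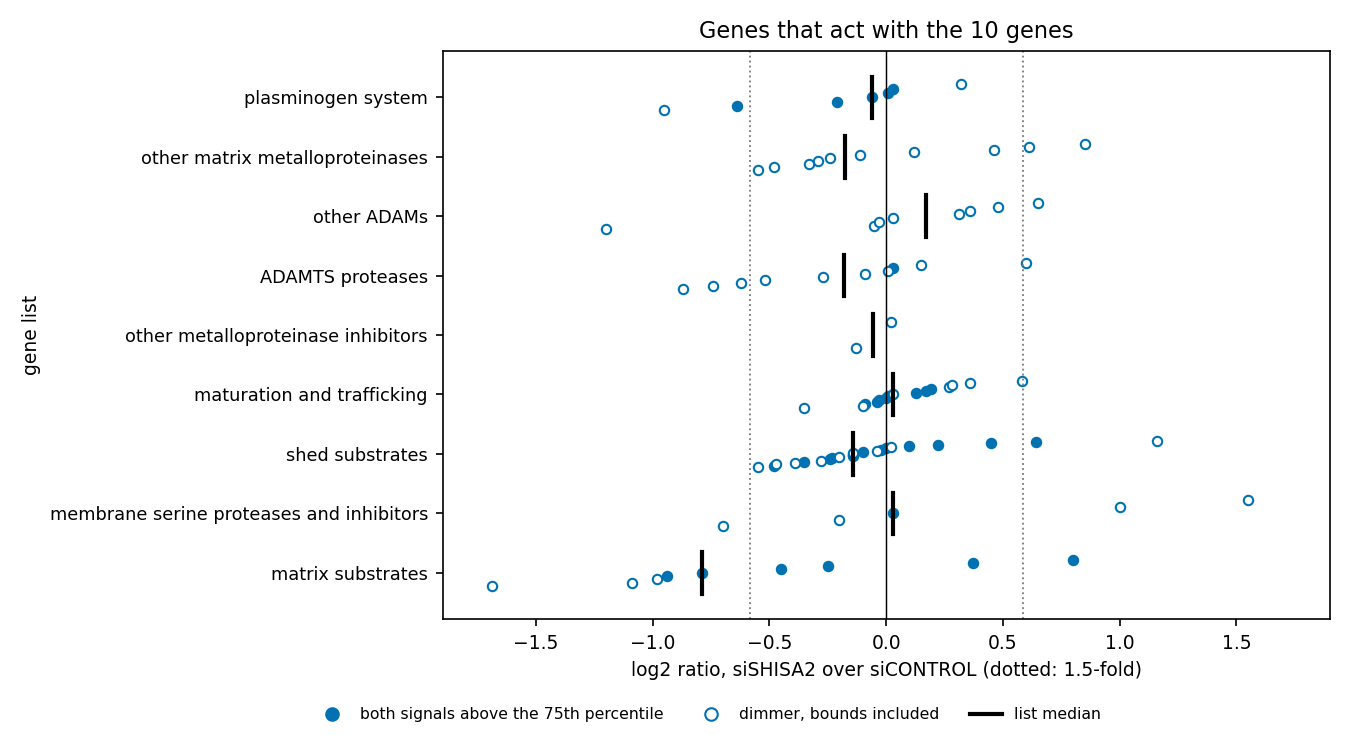
Log2 ratio of siSHISA2 over siCONTROL for each measured gene of the 9 related lists, with filled points for genes with both signals above 387.3, open points for dimmer ones and a bar at each list's median. Each gene is shown by its brightest measured probe set. The maturation and trafficking genes lie within 1.5-fold (dotted lines), while 5 of the 9 matrix substrates lie to the left of it.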

How the data were processed

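PC-3 RNA from 1 siSHISA2 and 1 siCONTROL sample, grouped by title, was labelled with biotin and hybridised to 1 array each. The deposited intensity values are probe-set signals that the authors made with MAS5, per the submitters' processing notes (version not given in the sources used here). After trimming 2% at each end, the mean was 500.1 in both arrays, so no further scaling was applied. MAS5 subtracts mismatch signal, which makes dim signals noisy. Genes were named from GEO's platform annotation, using the 41097 of 54675 probe sets with 1 symbol, and the 62 control probe sets were left out.

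Log2 ratios were computed after raising signals to the floor. The brightest measured probe set stood for a gene. For the spread, the log2 ratio of a gene's brightest measured probe set minus that of its next brightest was taken, and the SD of these differences over genes was divided by the square root of 2, binned by the signal of the dimmer one. With 1 array per group there are no residual degrees of freedom, so no p-value was computed, and precision is limited by having 2 arrays. The 10 genes, the related lists and the motifs were chosen with earlier results of these data known. Named beside the 10 genes were SHISA2, the largest ratios of each list (up to 4 bright genes and 2 of any brightness), and others to give a list's range or a known partner, these last chosen after values were seen. Likeness of patterns cannot be measured over 2 arrays. Alternatives were 3 other scalings (median, quantile, loess with span 0.3), other floors, a pseudocount, probe sets averaged, probe sets named _x_at and _s_at left out, and 1.5-fold. The procedure was tested on simulated data. Promoter windows are RefSeq's, build GRCh38.p14. Python 3.11.15, numpy 2.4.6, pandas 2.3.3, scipy 1.17.1, statsmodels 0.14.6 and matplotlib 3.10.9 were used.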

Additional observations from a re-analysis of the deposited data

How the results depend on the processing

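Of 76 values of the 10 genes under alternatives, 74 moved by less than the spread at their signal and the only change of sign, that of PLAU between 0.02 and -0.04, lay within it. The other 2 were MMP7, at -1.49 with the floor at the 25th percentile (11.3) and -1.46 with no floor and a pseudocount of 1. It was not measured with the floor at 387.3, nor was TIMP3, and PLAU and TIMP3 had no probe set left without the _x_at and _s_at kinds. Many of the 76 values could not move. The other floors leave the 8 genes with both signals above 387.3 as they were, and the pseudocount hardly touches them. Averaging cannot change a gene with 1 measured probe set. Leaving out the _x_at and _s_at kinds cannot change a gene whose brightest probe set is of neither kind. The 74 of 76 is thus no measure of robustness. PLAUR ranged from 0.29 to 0.45, TIMP2 from -0.61 to -0.51, ADAM9 from -0.42 to -0.30 and ADAM10 from -0.38 to -0.28. The count of these genes at least 2-fold apart, 0 as reported, was 1 (MMP7) after median centring, quantile normalization or loess, with the lower floor or the pseudocount, and at 1.5-fold. For probe sets it was 1 in the same scalings and floors and 3 at 1.5-fold. Over all genes the count of 192 became 2374 with the floor at 11.3, 9 with the floor at 387.3, 831 with the pseudocount and 1135 at 1.5-fold, and the higher side held 62.0% of the 2-fold calls with deposited scaling, 58.6% after median centring, 51.5% after quantile normalization and 48.5% after loess. Fewer or more dim genes enter as the floor moves. With the pseudocount the same 12931 genes enter, but their dim signals are no longer raised to 47.9. Of 79 values of the related lists, medians and counts at 1.5-fold together, 58 stayed within their spread or, for counts, did not change. Beyond their spread 3 medians changed side. The other matrix metalloproteinases had a median of 0.37 with the floor at 11.3, the ADAMTS genes 0.03 with the floor at 387.3, and the other ADAMs -0.01 with probe sets averaged. Within their spread, the plasminogen system turned to 0.02 with the floor at 11.3 and the membrane serine proteases to -0.02 after quantile normalization. Without the _x_at and _s_at kinds the shed substrates came to -0.01, and the cause was not tested. The membrane serine proteases moved from 0.03 to 1.00 because SPINT2 (0.03) and HPN (-0.70) had measured probe sets of the _s_at kind only. That left PRSS22 (1.55), SPINT1 (1.00) and KLK7 (-0.20), all of them bounds. No paired analysis was possible because each group has 1 array. Dim signals limit MMP7, TIMP3 and most related proteases.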

Other observations

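Probe sets of 1 gene disagreed in several of the related genes, which are named here after their values were seen. FRMD8, a partner of the inactive rhomboids, had log2 ratios from -1.51 to 1.04 over its 4 measured probe sets, with 0.17 on the brightest, at 3054.5 in siSHISA2 and 2723.8 in siCONTROL cells. PCSK7, a proprotein convertase, read -0.35 on its brighter probe set and 0.82 on the other. CD44, which MMP14 and ADAM10 cleave, read -0.14 on the brightest of 10 measured probe sets, and the highest of the 10 was 0.84. The fibronectin gene FN1 ranged from -1.28 to 0.18 over 5 probe sets. SDC1 and BTC, both shed from the membrane, were lower on both of their probe sets, with -0.39 and -0.72 for SDC1 and -0.55 and -0.40 for BTC.

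ADAMTS5, an aggrecan-degrading protease, was lower on all 3 measured probe sets, from -1.02 to -0.40, at 94.3 in siSHISA2 and 144.8 in siCONTROL cells on the brightest, and MMP16, a membrane-type metalloproteinase, on both of its probe sets (-0.36 and -0.33), at 188.9 in siSHISA2 and 237.6 in siCONTROL cells. These signals were all under 387.3, where the spread between probe sets was 0.30 or 0.43.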
